A study of Mus musculus with 2 samples.

Results

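The narrowest R-loop peaks of primary NSPCs, those below 300 bp, were selected on their size alone: a peak was a member when its end minus its start was below 300 bp. Of the 22132 peaks in the list, 976 met this rule, which is 4.41%, and 21156 peaks remained. NSPCs are neural stem and progenitor cells, here cultured from frontal brains of C57BL/6 mice at postnatal day 7, and the paper states that they were treated with aphidicolin, a DNA polymerase inhibitor that causes mild replication stress. The labels name no treatment. RNA:DNA hybrids were precipitated from digested genomic DNA with the S9.6 antibody and sequenced (DRIP-seq), and 1 peak list with positions alone was analysed, so no peak has a height, a read depth or a replicate error. The input sample was not analysed here. With positions alone, the cell type could not be checked against marker expression. Intervals below are 95% intervals and cover counting error only, and peaks of 1 list are not independent replicates.

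An R-loop is a structure of 3 strands that arises when RNA pairs again with the template strand behind RNA polymerase and leaves the other DNA strand single. R-loops form readily where the coding strand is rich in G, and they are known from promoters and from the ends of genes, where they have been linked to initiation and termination of transcription. Tracts of alternating CA and TG can adopt left-handed Z-DNA, long runs of purines against pyrimidines can form triplexes, and clustered G runs can fold into G-quadruplexes.

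The members covered a wide range of sequence, and 9 of those without any base in an annotated exon are printed to show its ends. All are mm9 sequence, 5′ to 3′, and those in genes are given on the coding strand. Among exon-free members 10 kb or more from any other peak, the first held the longest uninterrupted CA or TG tract, marked by capitals and 60 bases long. A tract of 66 bases at a member in Chl1 is not printed, since that member overlaps an annotated exon.

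Intergenic TG tract, chr19:15340410-15340697, plus strand: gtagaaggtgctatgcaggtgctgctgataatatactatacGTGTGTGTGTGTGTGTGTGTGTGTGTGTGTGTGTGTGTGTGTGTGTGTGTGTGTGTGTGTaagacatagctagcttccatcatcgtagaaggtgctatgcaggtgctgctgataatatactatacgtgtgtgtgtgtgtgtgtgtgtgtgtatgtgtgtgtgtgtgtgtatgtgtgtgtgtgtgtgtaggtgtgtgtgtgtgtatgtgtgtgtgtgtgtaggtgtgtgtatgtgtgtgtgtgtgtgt

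The second had the most G relative to C on a gene's coding strand, with 159 G and 2 C in 271 bp of an intron of Dnahc7b, an axonemal dynein heavy chain gene. Capitals mark G runs of 2 or more. The third was one unbroken pyrimidine run of 293 bp, shown in capitals, and its nearest peak lay 302917 bp away.

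Dnahc7b intron, chr1:46328233-46328503, plus strand: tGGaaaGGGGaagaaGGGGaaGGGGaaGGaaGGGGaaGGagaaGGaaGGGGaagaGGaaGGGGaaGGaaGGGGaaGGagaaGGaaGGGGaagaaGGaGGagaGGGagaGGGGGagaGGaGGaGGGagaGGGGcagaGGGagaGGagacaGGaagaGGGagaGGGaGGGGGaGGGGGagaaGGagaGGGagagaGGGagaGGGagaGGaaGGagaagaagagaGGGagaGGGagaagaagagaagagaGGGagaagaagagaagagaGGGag

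Intergenic pyrimidine run, chr12:93386839-93387131, plus strand: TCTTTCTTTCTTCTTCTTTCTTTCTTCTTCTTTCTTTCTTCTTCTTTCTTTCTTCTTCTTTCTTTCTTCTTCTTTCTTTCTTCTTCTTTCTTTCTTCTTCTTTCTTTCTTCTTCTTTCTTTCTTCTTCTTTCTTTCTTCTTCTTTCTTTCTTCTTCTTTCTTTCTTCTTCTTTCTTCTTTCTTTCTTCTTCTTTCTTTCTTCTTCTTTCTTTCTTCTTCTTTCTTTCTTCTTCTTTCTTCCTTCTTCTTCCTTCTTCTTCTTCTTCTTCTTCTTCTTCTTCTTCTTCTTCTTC

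The fourth and the fifth had the highest and the lowest GC content among the 747 members that could be printed. In all, 846 members had no base in an exon. Capitals mark CpG dinucleotides. The fourth lay in an intron of Mdga1, which encodes a GPI-anchored adhesion molecule of developing neurons, and had 6 CpG in 128 bp. The fifth, on the X chromosome, had none in 116 bp.

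Mdga1 intron, chr17:30011101-30011228, minus strand: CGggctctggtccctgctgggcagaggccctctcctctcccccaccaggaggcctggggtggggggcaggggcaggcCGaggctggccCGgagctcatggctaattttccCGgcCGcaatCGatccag

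Intergenic AT-rich member, chrX:122852441-122852556, plus strand: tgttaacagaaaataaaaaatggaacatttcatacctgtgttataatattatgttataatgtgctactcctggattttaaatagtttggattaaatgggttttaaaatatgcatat

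The last set shows members that abut other peaks. A member of 100 bp in an intron of Lmna, the gene of the nuclear lamins A and C, lay 1 base from a peak of 698 bp. In an intron of Amotl1, which encodes an angiomotin family protein of cell junctions, 3 members of 154, 192 and 125 bp followed each other with 1 base between neighbours. They are printed in the order of transcription and hold no CA or TG tract.

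Lmna intron, chr3:88294256-88294355, minus strand: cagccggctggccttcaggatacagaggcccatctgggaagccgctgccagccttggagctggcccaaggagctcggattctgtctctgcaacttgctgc

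Amotl1 intron, first member, chr9:14362445-14362598, minus strand: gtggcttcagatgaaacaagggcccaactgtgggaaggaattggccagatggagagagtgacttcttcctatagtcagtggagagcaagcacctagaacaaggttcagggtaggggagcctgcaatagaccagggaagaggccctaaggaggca

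Amotl1 intron, second member, chr9:14362252-14362443, minus strand: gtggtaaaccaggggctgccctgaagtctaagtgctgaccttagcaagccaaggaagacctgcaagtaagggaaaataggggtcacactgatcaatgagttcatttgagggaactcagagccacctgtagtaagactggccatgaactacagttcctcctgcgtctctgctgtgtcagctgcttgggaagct

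Amotl1 intron, last member, chr9:14362126-14362250, minus strand: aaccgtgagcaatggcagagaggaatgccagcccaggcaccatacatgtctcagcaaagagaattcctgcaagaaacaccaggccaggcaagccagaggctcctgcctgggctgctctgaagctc

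Member widths ran from 100 to 299 bp, with a median of 200 bp and quartiles of 144 and 259 bp. Together the members covered 195 kb, or 0.399% of all bases in peaks, while peaks of 300 bp to below 1 kb numbered 8164, peaks of 1 to below 10 kb 12563 and peaks of 10 kb or wider 429. In bins of 50 bp from 100 bp on, the list held 270, 217, 210 and 279 members, and 442 peaks followed at 300 to 349 bp. Counts therefore fell slightly from the narrowest bin to 200 to 249 bp and then rose to 903 peaks at 450 to 499 bp. No peak was narrower than 100 bp. Per the labels the recovered DNA had been sheared to about 300 to 700 bp before sequencing, so every member is narrower than this range, and how a width below it arose was not tested.

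**Figure D1:**
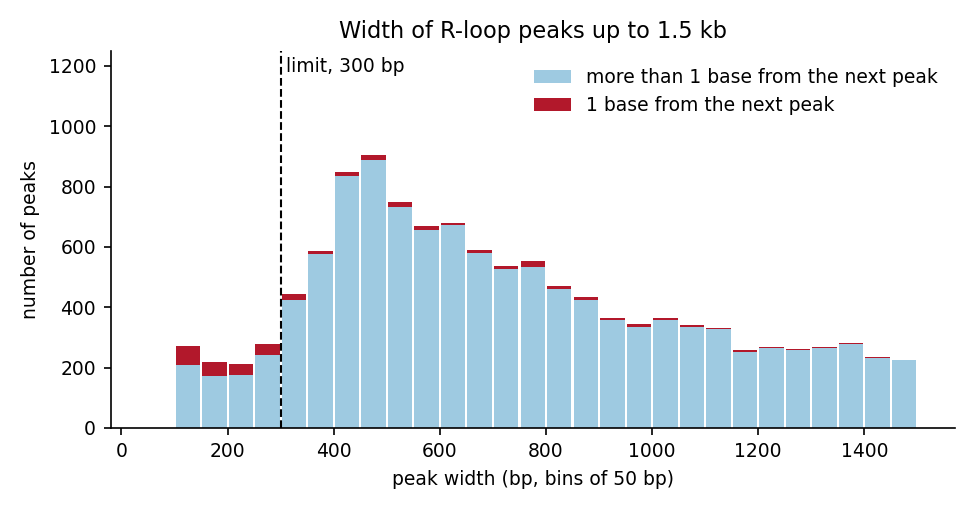
Number of R-loop peaks in bins of 50 bp of peak width up to 1.5 kb, split into peaks with 1 base between them and the next peak and all others, with a dashed line at the 300 bp limit. In the narrowest bin 63 of 270 peaks lie 1 base from the next peak, against 14 of 903 at 450 to 499 bp.

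Single peaks on both sides of the limit overlapped in GC content and gap. The 5 widest members were 298 or 299 bp wide, with GC contents of 71.9, 46.2, 48.2, 47.0 and 39.6% and gaps of 861, 4481, 217, 156566 and 39176 bp to the nearest peak. They lay at promoters, in introns of Fam189a1 and of the autophagy kinase gene Ulk2, and between genes, and one of those at a promoter lay within Upp1, which encodes a uridine phosphorylase. The first 5 remaining peaks in order of width were all 300 bp wide, with GC contents of 52.7, 46.7, 44.7, 57.0 and 46.7% and gaps of 67794, 265133, 60419, 1195 and 38786 bp. Of peaks at 250 to 299 bp, 43.4% had intergenic midpoints (37.7 to 49.2), and of those at 300 to 349 bp 44.1% (39.6 to 48.8). Gaps to neighbours differed between these bins: a peak within 1 kb was found for 21.5% (17.1 to 26.7) and 10.4% (7.89 to 13.6), and the median gap was 16.6 kb (10.3 to 23.2) and 30.9 kb (24.7 to 39.4).

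Members often had a neighbour at minimal distance. The gap between peaks was measured from edge to edge, and 181 members, or 18.5% (16.2 to 21.1), had exactly 1 base between them and another peak. Among the remaining peaks this held for 359, or 1.70% (1.53 to 1.88), a difference of 16.8 percentage points (14.5 to 19.4) that had the same sign on 20 of 20 chromosomes with members. Peaks of 300 bp to below 1 kb reached 2.01%, those of 1 to below 10 kb 1.47% and those of 10 kb or wider 2.33%. The share below 300 bp was thus above that of each wider class.

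Gaps slightly larger than 1 base were rare. Of all pairs of neighbouring peaks, 305 had a gap of 1 base and 4 a gap of 2 to 10 bases. The 1 base assumes starts counted from 0, as is usual for this format; if starts were counted from 1, these peaks would adjoin with no base between them. The 540 peaks concerned formed 235 chains, 166 of 2 peaks, 68 of 3 and 1 of 4, and 138 chains held a member. How these boundaries arose, and whether a chain is 1 R-loop region, was not tested.

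Peaks next to touching members varied in width. The widest peak next to a member was below 300 bp for 44 members, 300 bp to below 1 kb for 77 and 1 kb or wider for 60. Only 8 chains of 2 and 4 chains of 3 were made of members alone. Chains with a member spanned 1348 bp in the median (quartiles 904 and 2634, range 237 to 31935), and 3 of them stayed below 300 bp. When all chains were joined, the list held 21827 peaks and 798 below 300 bp. Of 120 members that lay in a gene on 1 strand and touched a peak on 1 side only, 52 lay downstream of that peak in the direction of transcription.

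Touching was most frequent among the narrowest members. It fell from 23.3% (18.7 to 28.7) at 100 to 149 bp over 21.2% and 16.7% to 13.3% (9.78 to 17.7) at 250 to 299 bp, and was 4.30% (2.77 to 6.62) at 300 to 349 bp. Of the first 5 members of 100 bp in chromosome order, 3 touched another peak: one at a transcript end in Tyro3, a receptor tyrosine kinase gene, one in the Lmna intron printed above and one in an intron of Rab2a, which encodes a small GTPase of the early secretory pathway. The other two, in an intron of Dcst1 and between genes, had gaps of 2178 and 512 bp.

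**Figure D2:**
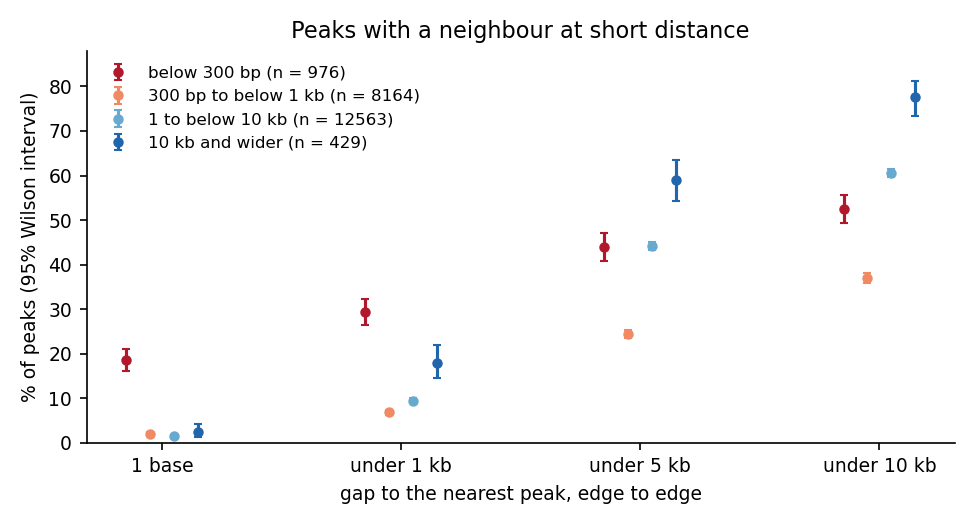
Share of peaks, in %, with another peak at a gap of 1 base, under 1 kb, under 5 kb and under 10 kb, by width class, with 95% Wilson intervals as bars. Members lead at 1 base (18.5%) and under 1 kb (29.3%), while at 10 kb (52.5%) they lie below the 2 widest classes.

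At larger distances the members divided. A neighbour within 1 kb was found for 29.3% of members (26.5 to 32.2) and 8.62% of the remaining peaks, whereas within 10 kb the shares were 52.5% (49.3 to 55.6) and 51.8% (51.1 to 52.5), a difference of 0.658 points (-2.55 to 3.85). The median gap was 7.83 kb for members (6.27 to 10.5) and 9.10 kb for the remaining peaks (8.88 to 9.43), but 19.1 kb for peaks of 300 bp to below 1 kb (18.2 to 20.1). By this measure 181 members were touching, 331 had a gap of 2 bases to below 10 kb, and 464 lay 10 kb or more from any peak, with a median gap of 51.7 kb. These divisions were made after the gaps had been seen. With touching peaks joined, the share of members within 1 kb was 13.2% (11.0 to 15.7) against 7.07%, and the share within 10 kb 41.6% (38.2 to 45.1) against 51.1%, so the latter then lay below that of the other peaks.

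The nearest peak was itself below 300 bp for 93 members, 9.53% (7.84 to 11.5), and for 4.23% of the remaining peaks. This difference of 5.30 points (3.59 to 7.32) shrank to 1.67 points (0.336 to 3.43) after joining. A peak of at least 1 kb lay within 10 kb of 36.7% of members (33.7 to 39.8), 41.4% of the remaining peaks and 26.2% of peaks of 300 bp to below 1 kb.

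Most member midpoints fell in introns or between genes. Introns held 462 of 976 midpoints, 47.3% (44.2 to 50.5), and intergenic sequence 326, 33.4% (30.5 to 36.4). Promoters, which began 1 kb before a TSS and ended 100 bp after it, held 74, or 7.58% (6.08 to 9.41). Transcription termination sites, which began 100 bp before a transcript end and reached 1 kb past it, held 68, or 6.97%, exons outside UTRs 30, or 3.07%, 3′-UTRs 14 and 5′-UTRs 2. Against their share of genome bases, promoters (2.45%), termination sites (2.55%) and introns (35.9%) were above and intergenic sequence (56.9%) was below.

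Compared with the remaining peaks, members were more often intergenic by 10.6 points (7.68 to 13.7), on 18 of 20 chromosomes, and less often at promoters, with a difference of -4.28 points (-5.85 to -2.40), on 16 of 20. Midpoints in introns differed by -1.48 points (-4.67 to 1.73). The contrast lay with the wide peaks: of peaks of 1 to below 10 kb 14.9% were intergenic and 14.9% at promoters, while peaks of 300 bp to below 1 kb had 35.9% intergenic (34.9 to 36.9) and 7.07% at promoters. Against this class alone members differed by -2.50 points for intergenic sequence (-5.57 to 0.691) and by 0.514 points for promoters (-1.09 to 2.42). At termination sites members, pooled over all gaps, had 6.97% (5.53 to 8.74), above the 4.59% (4.16 to 5.07) of peaks of 300 bp to below 1 kb.

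**Figure D3:**
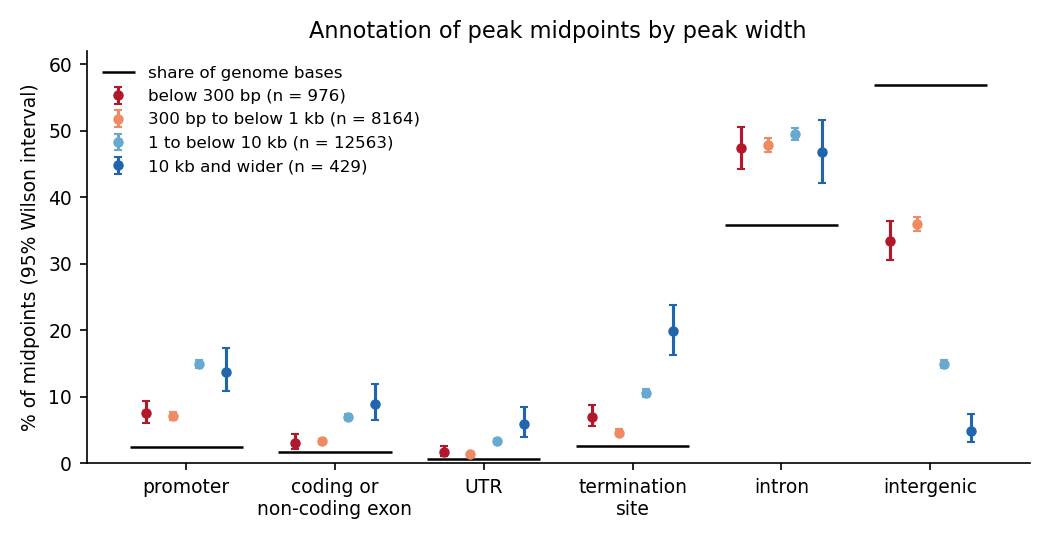
Share of peak midpoints, in %, in each annotation class by peak width, with 95% Wilson intervals as bars and a black line at the share of genome bases. Pooled over all gaps to the next peak, members and peaks of 300 bp to below 1 kb overlap in all classes but the termination site, where members reach 6.97%.

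Annotation varied strongly with the distance to the next peak. Of touching members 11.6% (7.71 to 17.1) were intergenic and 16.0% (11.4 to 22.1) lay at a termination site. Of members 10 kb or more apart 49.1% (44.6 to 53.7) were intergenic and 3.45% (2.13 to 5.53) at a termination site, and the 331 others lay between these values with 23.3% and 6.95%. Peaks of 300 bp to below 1 kb showed the same order for intergenic midpoints, with 9.15%, 21.2% and 44.9%. At termination sites the touching peaks of that class had 7.93% (4.69 to 13.1), below the 16.0% of touching members. These 2 intervals overlap, which does not show equal shares, and the difference was not tested. At 2 bases to below 10 kb that class had 6.90% (6.03 to 7.89), and at 10 kb or more 3.21% (2.76 to 3.72). These values lie near the 6.95% and 3.45% of members at the same gaps.

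A protein-coding gene held the midpoint of 584 members, 59.8% (56.7 to 62.9), against 69.5% of the remaining peaks and 58.0% of peaks of 300 bp to below 1 kb. These members fell in 528 genes, some of which overlap each other; 470 held 1, 51 held 2, 6 held 3 and 1 held 8. Host genes of members had a median length of 64.3 kb (57.2 to 74.0), and the 7680 genes that held a remaining peak 31.0 kb (29.9 to 32.2). In 118 genes members were the only peaks, and their median length was 40.6 kb (28.4 to 53.4). A gene with many peaks is more likely to hold a member, and no set of equally few wider peaks was compared. Whether members favour long genes was therefore not tested. Where 1 gene held the midpoint, 11.7% of members (9.35 to 14.6) fell in the 10% of the gene next to its start, against 17.0% (16.4 to 17.6) of the remaining peaks. In the 10% next to the gene end the shares were 13.8% and 14.0%.

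The genes with the most members were mostly sites of chains. A chain of 3 members counts as 3, so such chains enter this list through the count itself. Sec31a, which encodes a coat subunit of ER export vesicles, held 3 members of 262, 276 and 209 bp that touched each other about 32 kb into the gene, and Cyfip1, a subunit gene of the WAVE actin regulator, held 3 of 276, 284 and 155 bp in the same arrangement. In Cyfip1 their GC contents were 44.9, 56.0 and 33.5%, so these neighbours 1 base apart differed widely in composition. The members in Sec31a differed less, with 53.8, 47.1 and 44.0%. Amotl1 held the chain printed above, with 53.2, 51.0 and 56.8% in the printed order. Mdga1 held 3 separate members, of which 2 touched wider peaks of 647 and 1067 bp and the GC-rich one lay 3429 bp from the next peak. Tbcb, which encodes a tubulin folding cofactor, is 8.14 kb long and all 3 of its peaks were members, 2 of them touching. Specc1 held 3 members of 129, 162 and 151 bp, with gaps of 19121, 847 and 847 bp. Gm20388, an annotated gene model of 4435 kb, held 8 members among 101 peaks, and none of the 8 touched another peak.

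No member midpoint lay in the listed genes of neural progenitor identity. Of 18 transcription factor genes of neural progenitors, such as Sox2, Olig2 and Pax6, 12 held a peak midpoint, and 0 of their 69 peaks was a member, where a count of 0 allows a share of up to 4.35%, close to the 4.41% of the whole list, so a lower share in these genes was not detectable. Of 9 long genes with recurrent DSB clusters that the paper's text names, a part of its set, 8 held a peak midpoint. Among their 73 peaks 1 was a member, and whether this share lies below that of the whole list was not tested. The member lay in Cdh13, the gene of T-cadherin, 10.8 kb from the gene start. It was 115 bp wide and had a peak of 1252 bp at 291 bp.

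GC content of the members had a median of 48.3% (47.7 to 49.0) and ranged from 24.1 to 77.8%. That of the remaining peaks was 48.7% (48.7 to 48.8), a difference of -0.417 points (-1.04 to 0.294), and peaks of 300 bp to below 1 kb had 47.3% (47.1 to 47.4). In the same central window of 200 bp, which is the same for all widths, medians were 48.5% for members and 49.0% for the remaining peaks. In the surrounding 2 kb, however, members had 46.6% (46.3 to 46.9), below the remaining peaks with 47.8% (47.7 to 47.9) and above peaks of 300 bp to below 1 kb with 45.8% (45.6 to 45.9). The CpG ratio, observed over expected from C and G content, was 0.187 in the 2 kb around members (0.181 to 0.196) and 0.209 around the remaining peaks. Around peaks of 300 bp to below 1 kb it was 0.182 (0.179 to 0.184) and around those of 1 to below 10 kb 0.228.

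The 3 members with the highest GC content all lay at promoters. They had 77.8, 77.5 and 76.7% GC at widths of 221, 120 and 219 bp, and one lay in Cspp1, the gene of a protein of centrosomes and spindle poles. Of the 3 lowest, 2 were intergenic, and the other, with 27.0% GC, touched a peak of 129 bp in an intron of Rfx4, which encodes a transcription factor of the developing brain.

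Simple repeats were most frequent at members that stood alone. A CA or TG tract of at least 10 uninterrupted copies (20 bases, on either strand) was found in the 200 bp around the midpoint of 131 members, 13.4% (11.4 to 15.7). The remaining peaks had 7.33% (6.99 to 7.69), peaks of 300 bp to below 1 kb 14.4% (13.7 to 15.2), peaks of 1 to below 10 kb 2.88%, and all genome windows of that length 1.98%. Runs of purines alone or pyrimidines alone of at least 50 bases occurred at 112 members, 11.5% (9.63 to 13.6), against 15.5% of peaks of 300 bp to below 1 kb and 1.33% of genome windows. GA or TC tracts of at least 10 copies, which can overlap with these runs, occurred at 30 members, 3.07%, against 0.896% of genome windows. At least 1 of these was present at 246 members, 25.2% (22.6 to 28.0), 15.2% of the remaining peaks and 30.5% of peaks of 300 bp to below 1 kb (29.6 to 31.6).

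With growing distance to the next peak the share with a CA or TG tract rose from 2.76% of touching members (1.19 to 6.30) over 10.3% to 19.8% (16.5 to 23.7) of those 10 kb or more apart. Purine or pyrimidine runs went from 3.87% over 6.65% to 17.9%. Among peaks of 300 bp to below 1 kb the tract had 6.71%, 9.43% and 17.5%, so at equal distance the intervals of both width classes overlapped. Runs in that class had 0.610% (0.108 to 3.37), 6.90% and 20.7% (19.6 to 21.8), the last against 17.9% (14.7 to 21.6) of members. The pooled share with a run was lower in members, 11.5% against 15.5%, and touching was more frequent, 18.5% against 2.01%. Whether these differences are linked was not tested.

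A motif of 4 runs of at least 3 G with loops of 1 to 7 bases, on either strand, was found at 55 members, 5.64% (4.35 to 7.26), at 7.76% of the remaining peaks and at 3.43% of genome windows. From touching members to those 10 kb or more apart its shares were 6.08%, 5.14% and 5.82%, with overlapping intervals on counts of 11, 17 and 27. In peaks of 300 bp to below 1 kb it was 5.85% (5.05 to 6.77) at 2 bases to below 10 kb and 8.30% (7.57 to 9.08) at 10 kb or more. A match shows that the letters occur in the window and nothing on a structure in the cells.

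**Figure D4:**
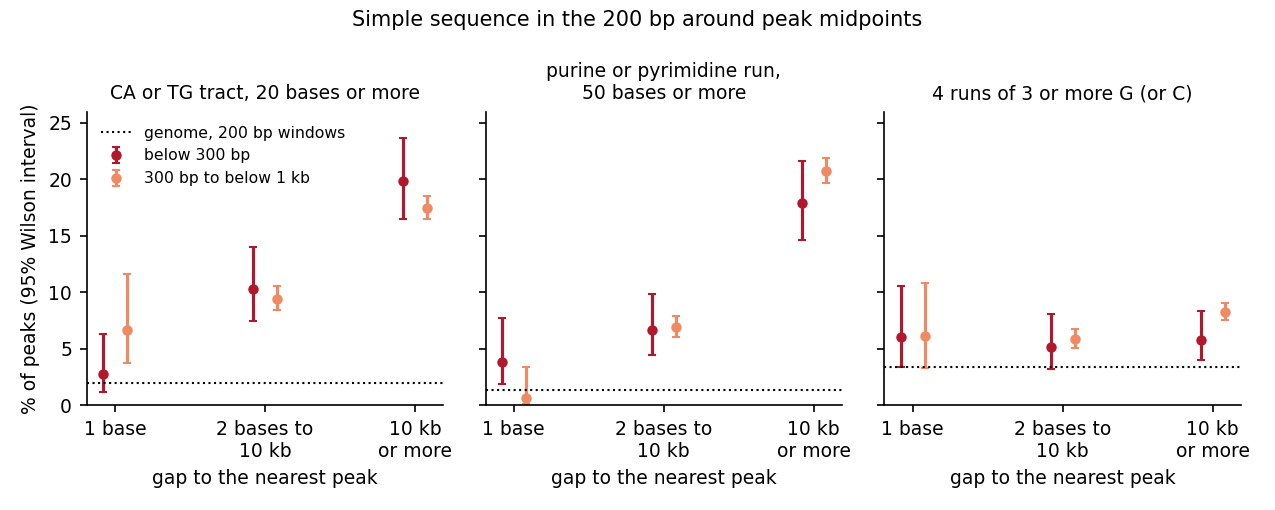
Share of peaks, in %, with a CA or TG tract, a purine or pyrimidine run or a motif of 4 G or C runs in the 200 bp around the midpoint, by the gap to the nearest peak, for members and peaks of 300 bp to below 1 kb, with 95% Wilson intervals and the genome share as a dotted line. Tracts and runs are most frequent at 10 kb or more (19.8% and 17.9% of members) in both width classes.

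Of 59 members in genes of 1 strand with a tract in 1 orientation, 42 had TG on the coding strand, 71.2% (58.6 to 81.2). For the remaining peaks this was 56.6% of 793 (53.1 to 60.0) and for all such tracts in protein-coding genes 55.7% of 107013. The difference between members and remaining peaks, 14.6 points (1.54 to 25.1), rested on few members. Peaks of 300 bp to below 1 kb had 54.1% (49.9 to 58.3). Those of 1 to below 10 kb had 62.2% (56.0 to 68.1), an interval that overlaps that of members. GC skew, (G - C)/(G + C), favoured G on the coding strand in the 2 kb around 64.8% of members in genes (60.8 to 68.6). For the remaining peaks this was 67.4% (66.6 to 68.2) and for peaks of 300 bp to below 1 kb 63.5% (62.1 to 64.9). In the central 200 bp the shares were 54.0% (49.9 to 58.0), 57.1% and 53.7%, so the interval of members included an even split. Without regard to sign, the median GC skew in the central 200 bp was 0.224 for members, 0.164 for the remaining peaks and 0.319 for peaks of 300 bp to below 1 kb. It was 0.460 for members 10 kb or more apart against 0.140 for touching members.

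Repeats limit where short reads can be placed. Of the 32-base words in the central 100 bp, a mean of 15.6% per member occurred again in the genome, against 11.2% for the remaining peaks, 18.9% for peaks of 300 bp to below 1 kb and 16.4% in windows spaced at 20 kb across the genome. Copies of a word within the same window or tract count as well. At least 50% of the words recurred in 134 members, 13.7% (11.7 to 16.0), namely in 4.42% of touching members and 21.1% of those 10 kb or more apart. The share thus moved with the tracts, and its part in their frequency was not tested.

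The edges of members lay near restriction sites less often than the same edges moved outward. Before precipitation the DNA had been cut with EcoRI, HindIII, BsrGI, SspI and XbaI, so a hybrid is recovered together with the fragment that carries it, and the eluted DNA was sonicated before sequencing. Of 1952 member edges, 264 lay within 100 bp of a site, 13.5% (12.1 to 15.1), while the same edges moved 1 kb outward gave 24.4% (22.5 to 26.3). For peaks of 1 to below 10 kb the order was the opposite, with 33.2% and 28.1% for moved edges, and at 10 kb or wider it was 41.1% and 29.1%. Peaks of 300 bp to below 1 kb lay between with 21.9% and 27.2%. Against the remaining peaks member edges differed by -15.5 points (-17.0 to -13.8), with this sign on 19 of 20 chromosomes. These intervals count edges as if independent, although both edges of a member can lie near the same site. Both edges lay within 100 bp of a site for 36 members. Within 20 bp the shares were 3.12% for member edges and 4.46% for moved edges. Midpoints gave another order. In the central 200 bp, 8.81% of members held a site (7.19 to 10.8). From the narrowest to the widest other class this share was 4.89% (4.44 to 5.38), 7.02% and 16.6%. The window is as wide as the median member, so for many members it reaches past the peak. From touching members to those 10 kb or more apart the share was 14.4% (10.0 to 20.2), 6.65% and 8.19%. Per kb of peak, members held 0.543 sites, and the other classes in the same order 0.550, 0.606 and 0.963.

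**Figure D5:**
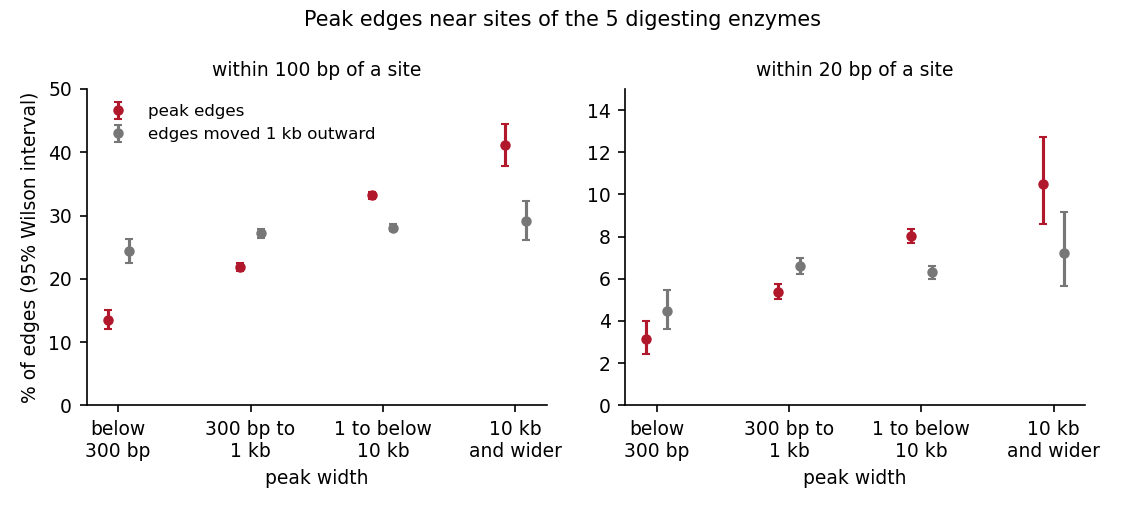
Share of peak edges, in %, within 100 bp (left) and 20 bp (right) of a site of the 5 enzymes, for peak edges and for the same edges moved 1 kb outward, by peak width, with 95% Wilson intervals. Member edges lie below their moved edges at 100 bp (13.5% against 24.4%), and peaks of 1 kb or wider lie above theirs.

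How much of a restriction fragment a peak covers follows in part from the width that chose the members, so these values are given as a description. Of the members 883, or 90.5% (88.5 to 92.2), lay wholly between 2 neighbouring sites, against 74.4% of peaks of 300 bp to below 1 kb and 36.9% of those of 1 to below 10 kb. Their fragments had a median length of 1.69 kb (1.62 to 1.80), close to the 1.64 kb of peaks of 300 bp to below 1 kb (1.62 to 1.67) and below the 2.40 kb of peaks of 1 to below 10 kb. A member covered 11.0% of its fragment in the median, while peaks of 1 to below 10 kb covered 90.0%. In the 2 kb around midpoints the mean number of sites was 2.34 for members, 2.46 for peaks of 300 bp to below 1 kb, 1.23 for peaks of 1 to below 10 kb and 3.72 across the genome. The fragment under the midpoint held another peak for 264 members, 27.0% (24.4 to 29.9), of which 166 were touching members and 98 were not, against 4.25% of the remaining peaks. Of the 305 boundaries of 1 base, 14.8% lay within 100 bp of a site.

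Members occurred on 20 of 21 chromosomes. Their share of the peaks of a chromosome ranged from 3.08% on chromosome 15 to 5.94% on chromosome 13 among autosomes, where they made up 4.35% in all (4.09 to 4.63). On the X chromosome 26 of 293 peaks were members, 8.87% (6.13 to 12.7), and 18 of the 26 lay 10 kb or more from any other peak. The Y chromosome had 1 peak, which was no member.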

How the data were processed

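DRIP-seq peaks of NSPCs were analysed from 1 deposited list, whose unit is other than a measured level: positions in bp, with no score, signal or count. Per the paper's methods and the labels, the authors pooled DRIP reactions within 3 biological replicates, trimmed reads (Trim Galore 0.6.6, from the submitters' processing notes), aligned them to mm9, dropped duplicate reads and used a Hidden Markov Model to define peaks. How replicates were combined into 1 list is not given in the sources used here. The depth is unknown, and no error between replicates can be given.

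Peaks were chosen by width below 300 bp, and the peaks and gene lists were chosen with earlier results of these data known. Midpoints were classed with GENCODE M1 on mm9, in the order promoter, termination site, exon, 5′-UTR, 3′-UTR, intron and intergenic. Gaps, GC content, sites, tracts and repeated 32-base words were computed from the mm9 sequence. Shares carry Wilson intervals, differences Newcombe intervals and medians binomial order intervals, and no p-value was computed. Regions named in the text were the 5 narrowest and 5 widest members, the 5 narrowest remaining peaks and extremes of GC content and skew; genes were those with at least 3 members and those of 2 gene lists with a member; results for a further list are not reported here. Sequence of 1 region so chosen is not reported. Printed sequences excluded annotated exons, and the tract, pyrimidine run and chain were chosen later. Coordinates are counted from 1. The functions were tested on simulated data. Python 3.11.15, numpy 2.4.6, scipy 1.17.1, pandas 2.3.3, pysam 0.24.0, numba 0.67.0 and matplotlib 3.10.9 were used.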

Additional observations from a re-analysis of the deposited data

How the results depend on the processing

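The list has no depth and no replicates, so no setting could leave out a replicate, and no paired analysis was possible because the result comes from no test between groups. The alternative that leaves out soft-masked bases was not run, since the genome sequence used here carries no mask. Joining touching peaks, the comparison with peaks of 300 bp to below 1 kb, gene ends in place of transcript ends and every alternative for the CA or TG tract were chosen after seeing the data. Of 61 alternatives over 11 results, 24 stayed within the interval of the main value or, for counts, within 1.5 times it.

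Values below are members minus remaining peaks, in percentage points unless stated. A size limit of 200 bp left 487 peaks and one of 500 bp 3754. With the limit at 200 bp the intergenic difference was 4.99 and that of the median gap -4.09 kb. With 500 bp the differences were 19.9 for intergenic and -6.91 for promoter midpoints, -1.88 for GC, 14.0 kb for the gap, -9.38 for edges near sites and 11.0 for CA or TG tracts. Joining touching peaks gave 15.6 for intergenic midpoints, 7.54 kb for the gap, 8.58 for tracts, -14.2 for midpoints in protein-coding genes, 1.67 for a nearest peak below 300 bp and 0.0066 for unsigned GC skew in 2 kb, against -0.0011 as deposited. Against peaks of 300 bp to below 1 kb alone, the signs turned for intergenic midpoints (-2.50), promoters (0.514), tracts (-1.02) and GC (1.07, 0.437 to 1.79). Of the results whose sign turned, GC alone had an interval that leaves out 0. The gap, at -11.3 kb (-13.1 to -8.41), and edges, at -8.35 (-9.93 to -6.64), kept their sign.

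Promoters of 2 kb to each side gave -8.42. GC in 2 kb differed by -1.15. The gap differed by 7.87 kb to peaks of at least 1 kb, by 12.2 kb among intergenic and by -3.76 kb among intronic midpoints, so its sign depends on the setting; the interval of the main value, -1.27 kb, holds 0 (-2.87 to 1.44). Edges within 50 and 20 bp of a site gave -9.69 and -3.92, and leaving out EcoRI, HindIII, BsrGI, SspI or XbaI gave -12.9, -12.6, -12.8, -13.0 and -12.5. In 500 bp the CpG ratio differed by -0.0284 and unsigned GC skew by 0.0284. Any overlap with a protein-coding gene gave -14.2.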
